A study of Mus musculus with 8 samples.

Results

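Cytokines of the common gamma chain family act through receptors that share 1 chain, encoded by Il2rg, and add private chains for each ligand. Interleukin 15, the member on which natural killer (NK) cells depend, is presented by the chain encoded by Il15ra and signals through the chain encoded by Il2rb together with the common gamma chain. The kinases JAK1 and JAK3 sit on these chains and activate the transcription factors STAT5A and STAT5B, and the chain encoded by Il2ra raises the affinity for interleukin 2.

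The genes described here are 10 of this pathway, named by symbol: Il2rb, Il2rg, Il2ra, Il15ra, Il4ra, Il21r, Jak3, Jak1, Stat5a and Stat5b. A gene was measured through the probe sets annotated to its symbol alone. This gave 18 probe sets for 9 of the 10 genes, out of 28898 such probe sets for 17097 genes in the series. The annotation used lists no probe set for Il2rg, so the common gamma chain itself was not analysed here. All 9 genes passed the filter on low values, as did 11583 genes in all.

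The study measured RNA of sorted bone marrow progenitors of Nfil3 knockout and wild-type mice (Nfil3 is a transcription factor of the bZIP family required for NK cells) on 8 Affymetrix arrays. Its title asks at which stages NK cells depend on this factor. The 4 groups of 2 arrays were prepro NK cells of Nfil3 knockout mice (KO preproNK), prepro NK cells of wild-type mice (WT preproNK), all-lymphoid progenitors of Nfil3 knockout mice (KO ALP) and all-lymphoid progenitors of wild-type mice (WT ALP). All groups carried an Id2-GFP reporter, in which green fluorescent protein marks activity of Id2, and came from lineage-depleted marrow that was sorted and lysed without culture. The 2 arrays of a group, replicate 1 and replicate 2, were processed on different dates. The labels give neither the age of the mice nor how many mice contributed to a sample, and the tests therefore rest on the spread between samples alone, part of which may be technical.

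The WT preproNK array of replicate 2 stood apart. The SD of its log2 values over all probe sets was 1.39, against 1.55 to 1.88 on the other 7 arrays, and 310 of the tested genes were at a log2 value of 8 or more there, against 682 to 1498 on the others. The fitted differences between KO and WT preproNK are therefore given with and without it. Nfil3 itself had log2 values of 3.84 and 3.57 in KO preproNK, against 4.75 and 4.74 in WT preproNK, and 3.41 and 4.15 in KO ALP, against 6.89 and 5.50 in WT ALP. It was lower on both knockout arrays of each population, with log2 differences of -1.04 (SE 0.52, and -1.04 without the narrow-range array) in preproNK and -2.41 (SE 0.52) in ALP. Neither passed the test over all genes (limma, adjusted p = 0.613 and 1), and the probe set's place relative to the deleted part is not given in the sources used here.

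Marker genes set the frame for the receptor values. The 8 measured genes of a T lineage list (Cd3d, Cd3e, Cd28, Bcl11b and others) had mean log2 values of 9.21 and 9.05 in KO preproNK, 7.66 and 6.30 in WT preproNK, 4.46 and 4.45 in KO ALP, and 4.58 and 4.73 in WT ALP, and all 8 were above the array's median on each preproNK array. The 8 genes of an NK list averaged 6.07 and 5.96 in KO preproNK, 5.003 and 4.85 in WT preproNK, 4.02 and 4.09 in KO ALP, and 4.01 and 4.17 in WT ALP. Of these 8 NK genes, 7 were above the array's median on each KO preproNK array, and 5 and 6 on the WT preproNK arrays. In ALP of either genotype, 2 were above it in replicate 1 and 3 in replicate 2. Ncr1, which encodes the NK cell receptor NKp46, was at or below the array's median on all 8 arrays. This 1 marker of mature NK cells therefore gave no signal in the cells labelled preproNK, whereas most of the list lay above the median there. A further list held genes of innate lymphoid precursors or of group 2 innate lymphoid cells (ILC2). Its 7 measured genes averaged 8.71 and 8.43 in KO preproNK and 8.87 and 6.57 in WT preproNK. They averaged between 5.16 and 5.32 in ALP of either genotype. The 6 measured genes of an early lymphoid list averaged between 6.87 and 8.02 on the ALP arrays, against 4.11 to 4.62 on the preproNK arrays, which matches the ALP label. Myeloid genes gave signal in both populations. The 7 measured genes of a myeloid list averaged 6.72 and 6.17 in KO preproNK and 6.36 and 5.19 in WT preproNK. They averaged 6.88 and 6.30 in KO ALP, and 6.45 and 5.97 in WT ALP. In sorted bulk samples, fewer cells of a type and less RNA per cell cannot be told apart.

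Several of the genes lie beside each other in the mouse genome (build GRCm38.p6, RefSeq). Il2ra (chr2:11642792-11693194) and Il15ra (chr2:11705172-11733985) are separated by 11978 bases with 0 protein-coding genes starting between them. Il4ra (chr7:125552271-125579474) and Il21r (chr7:125603252-125634397) are 23778 bases apart, and Stat5b (chr11:100780731-100859004) and Stat5a (chr11:100859351-100885169) are 347 bases apart. Il2rb (chr15:78479256-78511621), Jak1 (chr4:101151974-101265282) and Jak3 (chr8:71676383-71690577) stand alone.

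The promoter windows of Il2ra, Il15ra and Il21r are shown because these are the receptor genes other than Il2rb whose values differed most between the populations. Each is the RefSeq window of 300 bases around the annotated start on the + strand of GRCm38.p6, read 5′ to 3′, at chr2:11642542-11642841 for Il2ra, at chr2:11705043-11705342 for the first of the windows of Il15ra, and at chr7:125603179-125603478 for Il21r. Capitals mark a match to the Ets motif CCGGAAG.
Il2ra: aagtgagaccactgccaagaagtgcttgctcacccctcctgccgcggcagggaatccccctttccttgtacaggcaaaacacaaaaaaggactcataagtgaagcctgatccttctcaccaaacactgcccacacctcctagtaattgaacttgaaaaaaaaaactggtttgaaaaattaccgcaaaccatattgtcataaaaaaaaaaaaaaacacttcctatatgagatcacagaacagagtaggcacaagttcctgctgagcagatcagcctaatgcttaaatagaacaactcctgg
Il15ra: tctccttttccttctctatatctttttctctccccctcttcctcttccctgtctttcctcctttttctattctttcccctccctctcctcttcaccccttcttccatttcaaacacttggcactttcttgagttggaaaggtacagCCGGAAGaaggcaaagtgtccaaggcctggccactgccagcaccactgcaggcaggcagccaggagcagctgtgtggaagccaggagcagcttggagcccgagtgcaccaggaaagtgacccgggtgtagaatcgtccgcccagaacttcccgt
Il21r: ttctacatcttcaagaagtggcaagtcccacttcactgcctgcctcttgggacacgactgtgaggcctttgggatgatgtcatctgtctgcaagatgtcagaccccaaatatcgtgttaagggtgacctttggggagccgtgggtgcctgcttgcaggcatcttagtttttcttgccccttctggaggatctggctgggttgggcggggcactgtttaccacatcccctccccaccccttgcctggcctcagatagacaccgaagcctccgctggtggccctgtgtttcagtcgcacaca

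The windows were searched on both strands for 5 short motifs. These were a STAT motif (TTCNNNGAA, in 8.3% of the 32851 promoter windows of the RefSeq table), an Nfil3 motif (TTANGTAA, 2.32%), a T-box motif (GGTGTGA, 3.98%), the Ets motif (8.86%) and a Runx motif (TGTGGTT, 5.27%). The Il15ra window held the Ets letters at position -104 relative to the start, the window of Il2rg held them at position -17, and the first Stat5a window held the T-box letters at position -60. The windows of Il2ra, Il21r, Il4ra, Jak1, Jak3 and Stat5b held none of the 5. No window was available for Il2rb, so it was not searched. A match is a description of these letters and no measurement of binding. The GC content was 42.7% for Il2ra, 54% for Il15ra and 56% for Il21r.

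Il2rb was high in preproNK cells and near background in ALP, and its highest values were those of the knockout. This gene encodes the chain shared by the receptors for interleukins 2 and 15. Its log2 values were 8.91 and 8.90 in KO preproNK, 6.77 and 5.76 in WT preproNK, 3.78 and 3.91 in KO ALP, and 3.87 and 4.68 in WT ALP. Both KO preproNK arrays lay above both WT preproNK arrays, these lay above all ALP arrays, and 3 of the 4 ALP values were below the median of their array. Between KO preproNK and KO ALP Il2rb rose by 5.06 on the log2 scale (SE 0.46, limma adjusted p = 0.00472), which is at least 30.5-fold with values below an array's median set to that median. It was 1 of 9 genes of the pathway called in this comparison (adjusted p under 0.05), against 1.75% of all 11583 genes tested. Leaving out either KO preproNK array or either KO ALP array ended this call, at adjusted p = 0.0777 to 0.0983, with the difference between 4.99 and 5.12.

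In the wild type the same comparison of preproNK with ALP gave a log2 difference of 1.99 (SE 0.46, limma adjusted p = 0.247) for Il2rb, at least 3.85-fold. None of the 9 genes was called there, against 0.095% of all genes tested. Without the WT preproNK array of replicate 2 the difference was 2.503 (adjusted p = 0.0411). Averaged over both genotypes, Il2rb rose by 3.53 (SE 0.33, adjusted p = 0.00266), and this call held in every other fit run, with an adjusted p of 0.0396 at most.

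Il2rb in KO and WT preproNK differed by 2.64 (SE 0.46, 95% interval 1.56 to 3.71), a 6.22-fold higher level in the knockout. The difference was 2.14 within replicate 1 and 3.14 within replicate 2. It did not pass the test over all genes (limma, adjusted p = 0.264, and 0.0945 in a fit blocked on replicate number). The comparison called 0% of all genes, with 625 genes at an unadjusted p under 0.05, and 0 of the 9 genes of the pathway. With the block, 10 genes were called, or 0.0863% of those tested, and 0 of the 9. Leaving out the narrow-range WT preproNK array of replicate 2 gave 2.13 (adjusted p = 0.301), while leaving out the array of replicate 1 gave 3.15 (adjusted p = 0.0109) with the narrow-range array as the only wild-type sample. In that last fit 4 of the 9 genes were called, among 2532 of all genes, namely Il2rb, Il21r, Jak1 and Stat5b.

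The T lineage and NK marker means given above stood in the same order of groups as Il2rb. Their part in the Il2rb difference was not tested. Among all tested genes outside the pathway, the 5 with the values most like those of Il2rb over the 8 arrays were Rbpms2 (Pearson r 0.996), Dock5 (0.995), Cd3d (0.994), 5830411N06Rik (0.993) and Aqp3 (0.993). Cd3d encodes a chain of the T cell receptor complex, and Aqp3 encodes a water and glycerol channel. The 8 arrays share 4 group means and 2 processing dates, so these values describe likeness only.

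**Figure D1:**
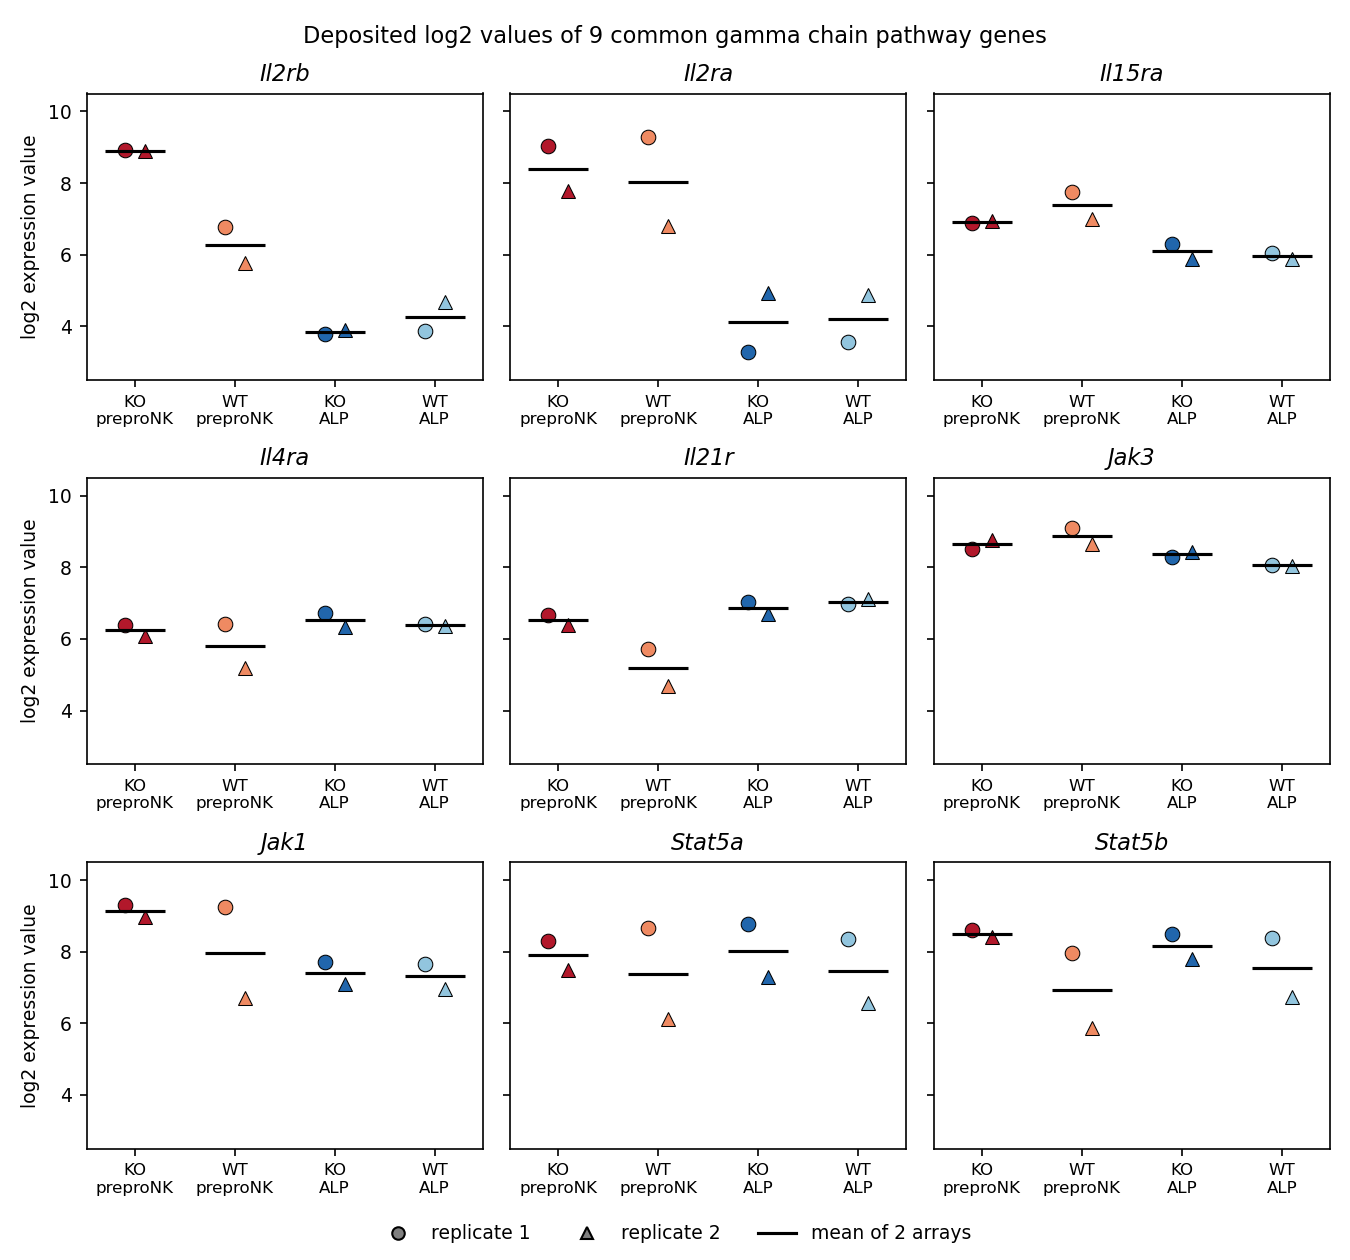
Deposited log2 expression value (y axis) of each of the 9 genes by group (x axis), with 1 circle for replicate 1, 1 triangle for replicate 2 and a line for the mean of the 2 arrays. Il2rb separates into 8.91 and 8.90 in KO preproNK, 6.77 and 5.76 in WT preproNK and at most 4.68 in ALP, whereas the replicate 2 triangle of WT preproNK is the lowest of its gene for Il4ra, Il21r, Jak1, Stat5a and Stat5b.

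Il2ra was higher in preproNK than in ALP cells of both genotypes and did not separate the genotypes. The chain it encodes makes the interleukin 2 receptor a high-affinity one. The arrays gave log2 values of 9.03 and 7.77 in KO preproNK, 9.27 and 6.80 in WT preproNK, 3.28 and 4.94 in KO ALP, and 3.57 and 4.87 in WT ALP. Every preproNK array lay above every ALP array, and in preproNK replicate 1 was the higher and in ALP the lower of the pair in both genotypes. Averaged over both genotypes, Il2ra rose by 4.06 in preproNK (SE 0.67, limma adjusted p = 0.0199), with Il2rb the other of the 2 pathway genes called among 9. Over all genes 3.38% were called in this averaged comparison. Leaving out KO preproNK replicate 1 or 2, KO ALP replicate 1 or WT ALP replicate 1 ended the call for Il2ra, at adjusted p = 0.0743 to 0.138.

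The Il2ra difference between the populations was 4.29 in the knockout (SE 0.94, adjusted p = 0.080), at least 15.6-fold, and 3.82 in the wild type (SE 0.94, adjusted p = 0.267), at least 12.3-fold. In the blocked fit, the knockout comparison called Il2ra (limma adjusted p = 0.0459) beside Il2rb, 2 of 9 against 3.88% of all genes, and the wild-type comparison called 0 of 9 against 0.578%. Leaving out either WT preproNK array, which changes the knockout comparison through the shared error estimate alone, also called it (adjusted p = 0.0137). Without the WT preproNK array of replicate 2 the wild-type difference was 5.05 (adjusted p = 0.0335). Between KO and WT preproNK the groups overlapped, with a difference of 0.37 and a 95% interval of -1.81 to 2.55, which turned to -0.87 without that array. The second Il2ra probe set had log2 values of 5.45 and 5.52 in KO preproNK, 6.22 and 3.09 in WT preproNK, and 3.09 to 3.43 in ALP, so on it WT preproNK replicate 2 was no higher than the ALP arrays.

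Il15ra, which encodes the chain that binds and presents interleukin 15, had the same order of populations at a smaller size. Its log2 values were 6.87 and 6.95 in KO preproNK, 7.76 and 6.99 in WT preproNK, 6.31 and 5.89 in KO ALP, and 6.06 and 5.89 in WT ALP. All 4 preproNK arrays lay above all 4 ALP arrays, and both KO preproNK arrays lay below both WT preproNK arrays. The KO minus WT difference in preproNK was -0.89 within replicate 1 and -0.033 within replicate 2. The averaged difference between populations was 1.11 (SE 0.28, limma adjusted p = 0.0881), and it was called with the replicate block (adjusted p = 0.0314) and without the WT preproNK array of replicate 2 (adjusted p = 0.0201, difference 1.30). In the knockout the difference was 0.81 (SE 0.40, adjusted p = 0.605) and in the wild type 1.40 (SE 0.40, adjusted p = 0.343). The knockout differed from the wild type by -0.46 in preproNK (95% interval -1.38 to 0.46, and -0.85 without that array) and by 0.12 in ALP. Its other probe set stayed below the array's median on all 8 arrays.

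**Figure D2:**
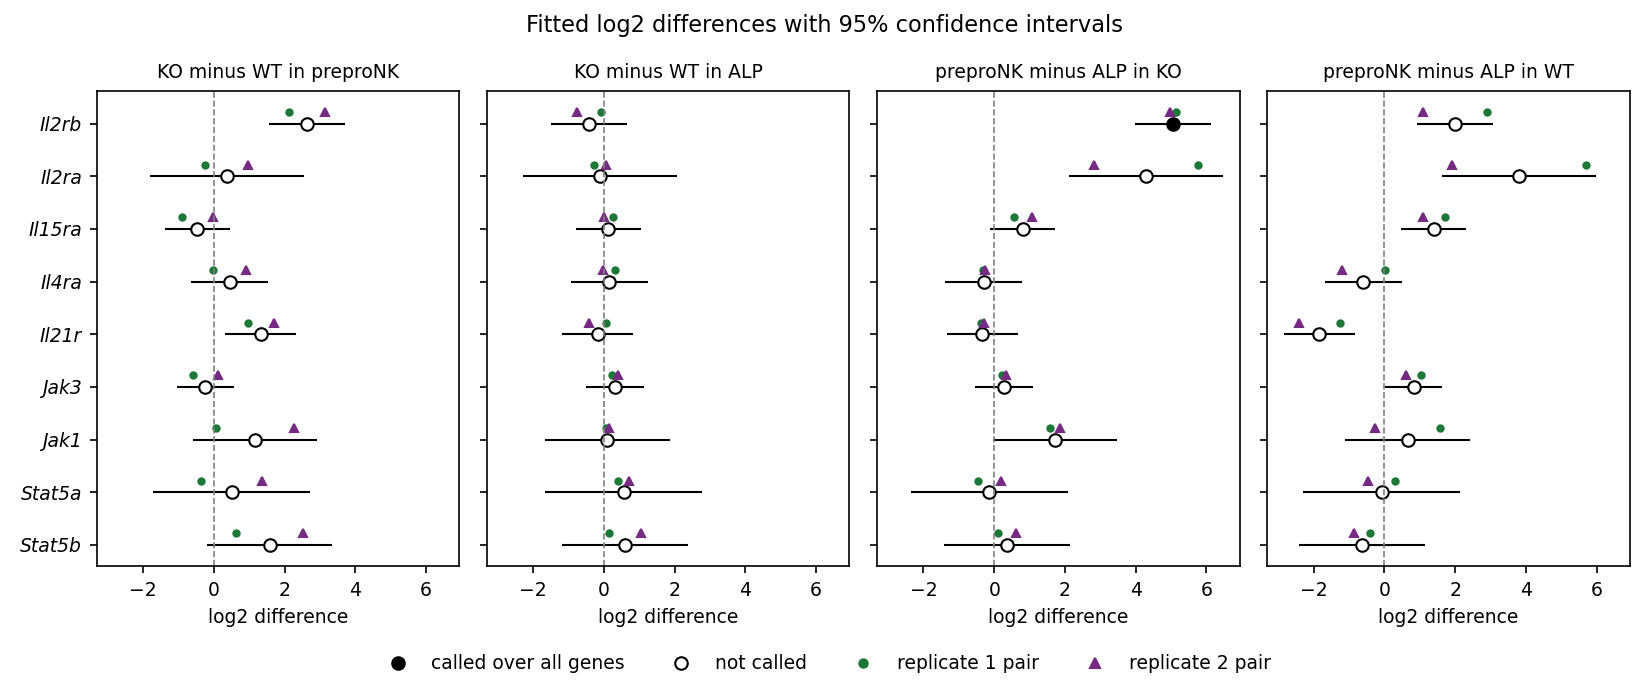
Log2 differences (x axis) of the 9 genes (y axis) in 4 comparisons, with the fitted difference as a large circle, its 95% confidence interval as a line, and the differences within replicate 1 and replicate 2 as small marks. The filled circle is the 1 called gene, Il2rb between KO preproNK and KO ALP at 5.06, and every interval for KO against WT in ALP crosses 0.

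Il21r was the receptor gene with lower values in wild-type preproNK cells. It encodes the private chain of the interleukin 21 receptor. The arrays gave log2 values of 6.67 and 6.40 in KO preproNK, 5.71 and 4.68 in WT preproNK, 7.04 and 6.69 in KO ALP, and 6.98 and 7.11 in WT ALP. The 2 WT preproNK arrays were the lowest of the 8, and both KO preproNK arrays lay between them and the ALP arrays. The difference between WT preproNK and WT ALP was -1.85 (SE 0.43, limma adjusted p = 0.251), and that between KO preproNK and KO ALP was -0.33 (SE 0.43, adjusted p = 1). The averaged difference was -1.09 (SE 0.31, adjusted p = 0.119), and with the replicate block Il21r fell (adjusted p = 0.043). Without WT preproNK replicate 1 the wild-type difference was -2.36 (adjusted p = 0.0233) and the averaged one -1.35 (adjusted p = 0.0182). That block fit called 4 of the 9 genes in the averaged comparison, namely Il2rb, Il2ra and Il15ra higher and Il21r lower in preproNK, against 7.36% of all genes.

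The Il21r difference between KO and WT preproNK was 1.33 (SE 0.43, 95% interval 0.33 to 2.34, limma adjusted p = 0.613). It was 0.96 within replicate 1 and 1.71 within replicate 2. Without the WT preproNK array of replicate 2 it was 0.82, and without that of replicate 1 it was 1.85. Il4ra, the neighbour of Il21r, encodes the chain that binds interleukin 4. It had log2 values of 6.40 and 6.09 in KO preproNK, 6.42 and 5.18 in WT preproNK, 6.73 and 6.35 in KO ALP, and 6.41 and 6.37 in WT ALP. Apart from the value of 5.18 these spanned 6.09 to 6.73, and the groups overlapped in the 4 pairwise comparisons. The difference between KO and WT preproNK was 0.45 (95% interval -0.64 to 1.53) and turned to -0.18 without the narrow-range array.

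Jak1 was higher in KO preproNK than in KO ALP on both arrays, and its value in wild-type preproNK depended on the array. JAK1 is the kinase bound to the private chains such as that of Il2rb. The log2 values were 9.30 and 8.97 in KO preproNK, 9.24 and 6.70 in WT preproNK, 7.72 and 7.11 in KO ALP, and 7.66 and 6.97 in WT ALP. WT preproNK replicate 1 matched the knockout and replicate 2 was the lowest of the 8. In the knockout the populations differed by 1.72 (SE 0.76, limma adjusted p = 0.511, and 0.049 without either WT preproNK array). In the wild type they differed by 0.65 (SE 0.76, adjusted p = 0.95), and by 1.92 without WT preproNK replicate 2. Averaged over genotypes the difference was 1.19 (SE 0.54, adjusted p = 0.377), and it was called without that array (1.82, adjusted p = 0.0113). Between KO and WT preproNK it was 1.17 (95% interval -0.60 to 2.93). It turned to -0.10 without that array and was 2.44 without WT preproNK replicate 1.

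Jak3, whose product binds the common gamma chain, had slightly higher values in preproNK than in ALP, with no call. Its log2 values were 8.51 and 8.78 in KO preproNK, 9.10 and 8.66 in WT preproNK, 8.29 and 8.43 in KO ALP, and 8.06 and 8.05 in WT ALP. All preproNK values lay above all ALP values, and the whole span was 8.05 to 9.10. The averaged population difference was 0.55 (SE 0.25, limma adjusted p = 0.371). KO and WT preproNK differed by -0.24 (95% interval -1.05 to 0.58, and -0.45 without WT preproNK replicate 2), and KO and WT ALP by 0.31 (95% interval -0.50 to 1.12).

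On the probe set used for it, Stat5a differed more between replicate numbers than between groups. Stat5b had its lowest group mean in wild-type preproNK, with overlap with the ALP arrays. Stat5a had log2 values of 8.30 and 7.48 in KO preproNK, 8.67 and 6.11 in WT preproNK, 8.76 and 7.29 in KO ALP, and 8.36 and 6.58 in WT ALP. In every group replicate 1 was higher than replicate 2 on this probe set, by more than the groups' means differed. The other Stat5a probe set read 7.50 and 7.75 in KO preproNK, 8.17 and 4.64 in WT preproNK, 7.59 and 7.39 in KO ALP, and 7.41 and 7.35 in WT ALP. There replicate 1 was the lower of the KO preproNK pair, and the ALP pairs differed little. The population difference was -0.13 in the knockout (95% interval -2.35 to 2.08) and -0.08 in the wild type (95% interval -2.29 to 2.13), turning to 1.20 without WT preproNK replicate 2. Stat5b had log2 values of 8.60 and 8.41 in KO preproNK, 7.96 and 5.88 in WT preproNK, 8.51 and 7.79 in KO ALP, and 8.37 and 6.74 in WT ALP. The 5.88 is that of the narrow-range array, and the 7.96 lay above the replicate 2 values of both ALP groups. Both KO preproNK values lay above both WT preproNK values, with a difference of 1.58 (SE 0.77, limma adjusted p = 0.613). That difference was 0.54 without the narrow-range array and 2.62 without WT preproNK replicate 1.

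**Figure D3:**
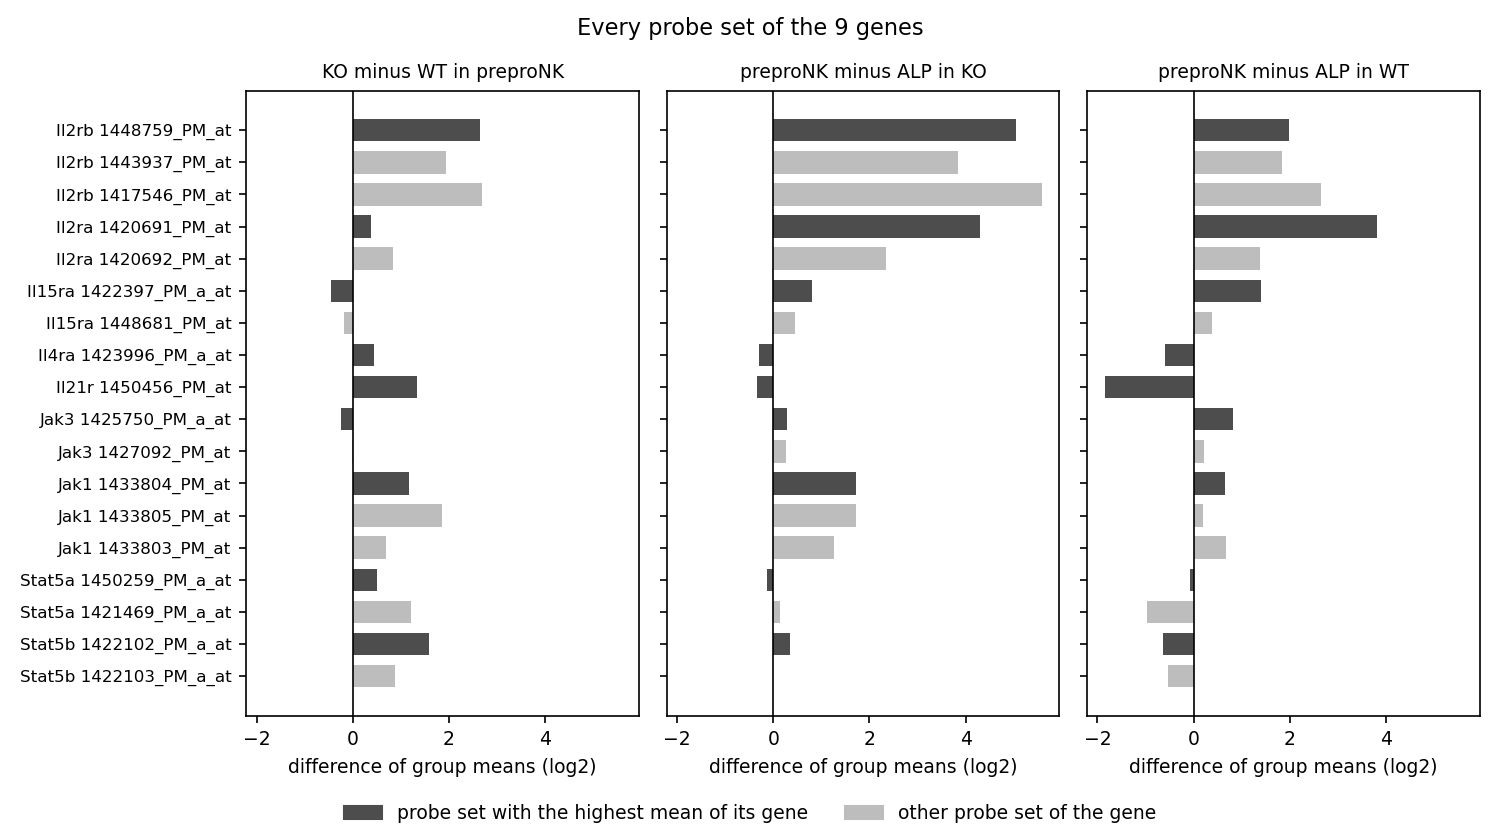
Difference of group means (x axis, log2) for each of the 18 probe sets (y axis) in 3 comparisons, with dark bars for the probe set used for its gene and grey bars for the others. The 3 Il2rb probe sets point the same way in all 3 comparisons, from 1.93 to 2.69 for KO minus WT in preproNK, whereas the 2 Stat5a probe sets differ in sign for preproNK minus ALP in KO.

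Separate probe sets of a gene gave a check within the arrays. The 3 Il2rb probe sets differed by 2.64, 1.93 and 2.69 between KO and WT preproNK, by 5.06, 3.84 and 5.58 between KO preproNK and KO ALP, and by 1.99, 1.84 and 2.65 between WT preproNK and WT ALP. They had the same sign in each of these comparisons. The 3 Jak1 probe sets gave 1.17, 0.68 and 1.85 between KO and WT preproNK, and 1.72, 1.27 and 1.72 between KO preproNK and KO ALP. Their KO preproNK means were 9.14, 8.02 and 9.32, against 9.24, 7.97 and 9.37 on WT preproNK replicate 1. The narrow-range array of replicate 2 read 6.70, 6.70 and 5.57, so on all 3 the genotype difference rested on that array. The Stat5a probe sets gave -0.13 and 0.13 in that last comparison.

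In ALP cells no genotype difference was called for these genes, and the errors were wide. The differences of the 9 genes between KO and WT ALP ran from -0.43 (Il2rb) to 0.59 (Stat5b), and the other 7 lay between -0.18 (Il21r) and 0.56 (Stat5a). None passed the test (limma, adjusted p = 1 for each), and 0% of all genes were called, with 5 at an unadjusted p under 0.05. The widest 95% interval was that of Stat5a, from -1.66 to 2.77. The test of whether the genotype difference itself differed between the populations gave 3.06 for Il2rb (SE 0.66, unadjusted p = 0.0017 and adjusted p = 1 by limma) and 1.51 for Il21r (SE 0.61, adjusted p = 1), or 2.56 and 0.999 without WT preproNK replicate 2. It called 0% of all genes, with 183 at an unadjusted p under 0.05, and 0 of the 9.

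Across the 9 genes, the median log2 difference between KO and WT preproNK was 0.50, beside 0.15 over all tested genes, and 7 of 9 were positive. Without WT preproNK replicate 2 it was -0.18, beside 0.0059 over all genes, and 3 of 9 were positive, so the sign of this median rested on that array. In ALP it was 0.12, beside 0.065. Between preproNK and ALP the median of the 9 was 0.36 in the knockout and 0.65 in the wild type, beside -0.0042 and -0.047 over all genes. The wild-type median was 1.20 without WT preproNK replicate 2, beside 0.0088. These comparisons share arrays with each other, so they are not independent.

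Most ligand genes of the family were near background in these progenitors. Of 6 ligand genes measured, Il4, Il7, Il9, Il15 and Il21 did not pass the filter on low values, with Il15 at 2.97 to 3.33 on all 8 arrays. Il2 alone was tested, with log2 values of 4.19 and 4.28 in KO preproNK and 3.92 and 4.01 in WT preproNK, a difference of 0.26 (SE 0.34, and 0.31 without WT preproNK replicate 2). Of 5 further receptor chains, Il7r was not analysed here, and Il13ra1 and Il13ra2 did not pass the filter. Il9r, the private chain of the interleukin 9 receptor, had log2 values of 4.11 and 3.81 in KO preproNK, against 6.96 and 3.91 in WT preproNK, and at most 3.39 in ALP. It was high on 1 array, WT preproNK replicate 1, and its difference of -1.47 (SE 0.84) became 0.049 without that array and -2.99 without the array of replicate 2. Crlf2, a chain of the receptor for thymic stromal lymphopoietin, differed by 1.17 between KO and WT preproNK (SE 0.57) and by -0.36 between the populations (SE 0.40). Its genotype difference was 0.37 without WT preproNK replicate 2 and 1.97 without replicate 1. The averaged population difference of Il9r was 1.37 (SE 0.59), called at 2.13 (adjusted p = 0.00199) without WT preproNK replicate 2, and that of Il2 was 0.22 (SE 0.24).

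**Figure D4:**
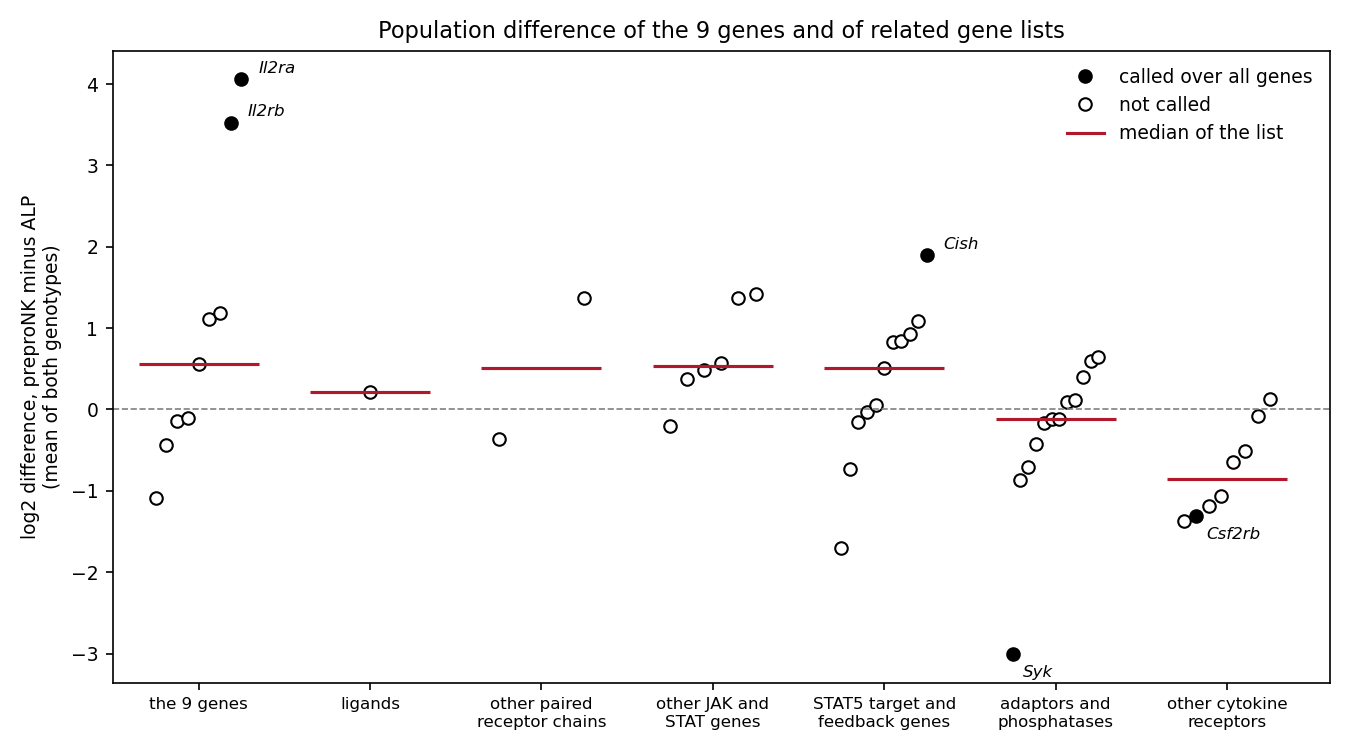
Log2 difference between preproNK and ALP averaged over both genotypes (y axis) for every tested gene of the pathway and of 6 related lists (x axis), with filled points for called genes and a line for each list's median. Il2ra at 4.06 and Il2rb at 3.53 lie above all other points, and Syk at -3.01 is the lowest.

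Of the other JAK and STAT genes, 6 were tested. With all arrays and no block 0 of them were called in any comparison, against 0% to 3.38% of all genes. The smallest unadjusted p-values between KO and WT preproNK were those of Stat2 (1.27, SE 0.48) and Stat3 (0.77, SE 0.55), both with a limma adjusted p of 0.613. Without WT preproNK replicate 2 they were 0.71 and -0.030. Without WT preproNK replicate 1, which leaves the narrow-range array alone, they were 1.82 and 1.57. Between the populations, averaged over genotypes, Stat4, which transmits interleukin 12 signals, differed by 1.41 (SE 0.55, limma adjusted p = 0.278). It was called with the replicate block (limma adjusted p = 0.0453), in a fit that called 7.36% of all genes. Jak2 differed by 1.37 (SE 0.55, limma adjusted p = 0.2995). Without WT preproNK replicate 2 the differences were 1.92 for Stat4 and 2.06 for Jak2. With all arrays the list's median was 0.53 in this averaged comparison, beside -0.0084 over all genes.

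Of 11 tested STAT5 target and feedback genes, 1 rose and 0 fell in preproNK against ALP averaged over genotypes, where 3.38% of all genes were called. The 1 was Cish, which encodes an inhibitor of STAT5 signalling that STAT5 itself induces. The arrays gave log2 values of 7.77 and 7.58 in KO preproNK, 7.78 and 6.18 in WT preproNK, 5.44 and 5.35 in KO ALP, and 5.31 and 5.62 in WT ALP. Every preproNK array lay above every ALP array, and the rise was 1.90 (SE 0.37, limma adjusted p = 0.0392). The call ended on leaving out any array other than those of WT preproNK (adjusted p = 0.0922 to 0.215) and without the filter on low values (adjusted p = 0.0609). In the knockout alone Cish was called with the replicate block (2.28, adjusted p = 0.0393, in a fit that called 3.88% of all genes) and without either WT preproNK array (adjusted p = 0.00607). Myc, named here after its values were seen, differed by -1.70 (SE 0.53, adjusted p = 0.156) and fell with the block (adjusted p = 0.0184, with 7.36% of all genes called) or without WT preproNK replicate 1 (-2.24, adjusted p = 0.0136).

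None of the 11 was called between KO and WT preproNK. Socs3, a feedback inhibitor of cytokine receptors, had log2 values of 4.04 and 5.19 in KO preproNK, against 3.09 and 3.10 in WT preproNK. The difference was 1.52 (SE 0.44, limma adjusted p = 0.613, and 1.53 without WT preproNK replicate 2). Both WT values lay below the medians of their arrays (4.02 and 4.27), and 4.04 lay close to that of its array (3.98). The size of this difference is therefore uncertain near background. Ccnd3, which encodes cyclin D3, had 8.54 and 8.28 in KO preproNK, against 7.40 and 5.74 in WT preproNK, a difference of 1.84 (SE 0.54, adjusted p = 0.613). For both genes the groups did not overlap. The Ccnd3 difference was 1.01 without WT preproNK replicate 2 and 2.67 without replicate 1. The median of the 11 was 0.83, beside 0.15 over all genes, and 0.23 without WT preproNK replicate 2, beside 0.0059.

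Among 12 tested adaptors and phosphatases, Syk fell in preproNK and no gene rose, against 3.38% of all genes called in the averaged comparison and 1.75% in the knockout. Syk encodes a kinase of immune receptors. Its log2 values were 5.02 and 6.29 in KO preproNK, 6.55 and 5.76 in WT preproNK, 9.15 and 8.85 in KO ALP, and 9.06 and 8.58 in WT ALP. All preproNK arrays lay below all ALP arrays, with an averaged difference of -3.01 (SE 0.37, limma adjusted p = 0.00724) and one of -3.34 in the knockout (SE 0.52, adjusted p = 0.026). Without KO preproNK replicate 1 the averaged call ended (-2.69, adjusted p = 0.0528), and leaving out any knockout array ended that in the knockout (adjusted p = 0.111 to 0.265). Ptpn6, which encodes the phosphatase SHP-1, had 8.004 and 7.94 in KO preproNK, against 6.75 and 4.57 in WT preproNK, a difference of 2.31 (SE 0.83, adjusted p = 0.613). Grb2 differed by 1.28 in the same comparison (SE 0.73, adjusted p = 0.613). Without WT preproNK replicate 2 the differences were 1.22 for Ptpn6 and 0.11 for Grb2. Without replicate 1, where WT preproNK is replicate 2 alone, they were 3.40 for Ptpn6 and 2.45 for Grb2.

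Of 8 tested genes of the beta common and gp130 receptor families, Csf2rb fell in preproNK averaged over genotypes and no gene rose, against 3.38% of all genes called. It encodes the chain shared by the receptors for interleukin 3, interleukin 5 and GM-CSF. The arrays gave log2 values of 6.48 and 6.76 in KO preproNK, 6.11 and 5.59 in WT preproNK, 7.77 and 7.38 in KO ALP, and 7.59 and 7.41 in WT ALP. The averaged difference was -1.31 (SE 0.26, limma adjusted p = 0.0431), and leaving out any array other than those of WT preproNK ended the call (adjusted p = 0.113 to 0.235), as did the mean of all probe sets (adjusted p = 0.0576) and a mean-variance trend (adjusted p = 0.0707). With the replicate block, which called 7.36% of all genes, Il6st (-1.37, adjusted p = 0.0375) and Csf3r (-1.18, adjusted p = 0.0319) fell as well, both named here after their values were seen. Il6st was also called without WT preproNK replicate 1 (-1.85) and Csf3r without replicate 2 (-1.32). In preproNK of the 2 genotypes, Csf2rb differed by 0.77 (SE 0.37) and Il6ra by 0.77 (SE 0.45), or by 0.51 and 0.75 without WT preproNK replicate 2. The list's averaged median between the populations was -0.85, beside -0.0084 over all genes.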

How the data were processed

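The 8 one-colour Affymetrix arrays were analysed from the log2 expression values per probe set deposited by the authors, for which the submitters' processing notes name RMA and Partek. RNA was extracted with magnetic beads and amplified with a whole transcriptome kit before biotin labelling, per the labels' protocols. The sources used here name no versions or settings for them. The table holds 45141 probe sets. The platform annotation gave 1 symbol to 28898 of them and several to 551, and 15692 were not listed with a gene. Of those with 1 symbol, 28689 matched RefSeq by Entrez number, and 0 symbols changed.

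For each gene the brightest probe set (by mean of the 8 arrays) was used. Genes entered the test where this exceeded the median of an array on 2 or more arrays. One limma model (version 3.58.1, R 4.3.3) with a mean for each of 4 groups, 4 residual degrees of freedom and two-sided moderated tests covered 11583 genes, with Benjamini-Hochberg adjustment over all of them and calls under 0.05. Precision is limited by the number of arrays, since array values have no depth. Floors at an array's median, used for folds written as at least, and the values of each further probe set were chosen after seeing the data. Genes of the pathway, related lists and markers were chosen with earlier results of these data known. From each list the called genes were named (up to 4 a comparison), or up to 2 with the smallest unadjusted p where none was called, and this was applied to KO against WT in preproNK and to the averaged population comparison.

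The series design ties each replicate number to a processing date, which makes the numbers pair the samples. Across genes, replicate 1 deviations from the group mean had correlations of 0.149 to 0.807 in all 6 pairs of groups. Alternatives were the replicate block, other filters, the mean of all probe sets, quantile normalization, a mean-variance trend, the compared groups alone and leaving out each array. On simulated data for the 11583 genes, the test called 10% of genes changed by 2 on the log2 scale between KO and WT preproNK. It called 68% of those changed by 4, and 27% and 73% between KO preproNK and KO ALP. Each simulation changed 100 genes of each size in KO preproNK alone, with the same spread of a gene in all groups. Neither held a date effect or a wider spread in WT preproNK. The gap between 10% and 27% therefore does not rank the comparisons.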

Additional observations from a re-analysis of the deposited data

Results flagged for a closer look

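Il2rb differed between KO and WT by 2.64 in preproNK (2.14 and 3.14 within replicates 1 and 2) and by -0.43 in ALP (-0.087 and -0.77), so the replicate pairs of the populations had opposite signs on the probe set used. In ALP 3 of the 4 Il2rb values lay below their array's median, so the sign there is uncertain near background. On 1 other Il2rb probe set KO ALP read 3.78 and 4.34, against 4.20 and 4.06 in WT ALP, and its ALP pairs differed in sign. On the remaining Il2rb probe set KO ALP was lower in both pairs. Il15ra differed between KO and WT by -0.46 in preproNK (-0.89 and -0.033) and by 0.12 in ALP (0.25 and 0.0018). Stat5b differed between preproNK and ALP by 0.36 in the knockout (0.097 and 0.62) and by -0.63 in the wild type (-0.41 and -0.86). The other Stat5b probe set gave 0.0036 in the knockout and -0.53 in the wild type. On it KO preproNK lay below KO ALP in replicate 1 (5.99 and 6.43) and above it in replicate 2 (5.72 and 5.27). The opposite signs of Stat5b therefore held on the probe set used and not on the other. The difference of these differences did not pass the interaction test over all genes for any of the 3 (limma, adjusted p = 1 each).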

How the results depend on the processing

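The array count limits these results, and signal near background limits Il2rb and Il2ra in ALP and Socs3 in preproNK. With the replicate block, the pathway genes called in the knockout population comparison were 2 and in the averaged one 4, and the genes called over the whole table were 10 between KO and WT preproNK, 449 between the populations in the knockout, 67 in the wild type and 852 averaged. The block with WT preproNK replicate 2 left out gave 47, 1238, 431 and 1661 genes, with 3, 4 and 5 pathway genes in the last 3 of these comparisons. The compared groups alone gave 1234 genes and 3 pathway genes in the knockout and 0 genes in the wild type, where no filter gave 6 and quantile normalization 73. No genotype comparison in ALP and no interaction gained a call in any fit.

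Leaving out 1 array in turn gave 0 to 2532 genes and 0 to 4 pathway genes between KO and WT preproNK, 0 to 530 and 0 to 3 between the populations in the knockout, 0 to 824 and 0 to 2 in the wild type, and 35 to 1058 and 1 to 4 averaged. Direction was unstable for differences near 0 and for some larger ones. Among the larger were those of Jak1 (1.17 with all arrays), Il9r and Stat3 between KO and WT preproNK. Between KO and WT preproNK the lowest and highest values were -0.87 and 1.61 for Il2ra, -0.18 and 1.07 for Il4ra, -0.10 and 2.44 for Jak1, -0.78 and 1.79 for Stat5a, -2.99 and 0.049 for Il9r, and -0.030 and 1.57 for Stat3. Between KO and WT ALP they were -0.94 and 0.72 for Il2ra, -0.084 and 0.33 for Il15ra, -0.045 and 0.34 for Il4ra, -0.25 and 0.44 for Jak1, -0.33 and 1.45 for Stat5a, and -0.22 and 1.40 for Stat5b. Between the populations in the knockout they were -0.87 and 0.60 for Stat5a, -0.0013 and 0.72 for Stat5b, and -0.44 and 0.29 for Nfil3. In the wild type they were -1.21 and 0.030 for Il4ra, -0.61 and 1.92 for Jak1, -1.36 and 1.20 for Stat5a, and -1.67 and 0.41 for Stat5b. Averaged, they were -0.75 and 0.54 for Stat5a, -0.66 and 0.38 for Stat5b, and -0.76 and 0.041 for Crlf2. For the interaction they were -0.76 and 1.71 for Il2ra, -0.32 and 0.92 for Il4ra, -0.20 and 2.34 for Jak1, -1.34 and 1.23 for Stat5a, and -0.050 and 2.03 for Stat5b.

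Signs also turned under other settings. With quantile normalization, KO against WT gave -0.26 for Il2ra in preproNK, and -0.054 for Il15ra, -0.066 for Il4ra and -0.14 for Jak1 in ALP, the Stat5a population difference in the wild type was 0.0099, and the Il2ra interaction was -0.19. With the mean of all probe sets, Il15ra in ALP was -0.062 and the Stat5a interaction 0.53. With the block and WT preproNK replicate 2 left out, KO against WT in preproNK was -1.15 for Il2ra, -0.053 for Il4ra and -0.10 for Stat5a. In that same fit the population difference of Stat5a was 0.52 in the wild type and 0.20 averaged, that of Stat5b was 0.17 averaged, and the interactions were -1.04 for Il2ra and -0.20 for Il4ra. Beyond the arrays left out, the cause was not tested. Of the other single-gene values, 1249 counted as unchanged. For a fit this meant the same direction and side of the threshold. For an untested value, within a replicate number or of another probe set, it meant a shift smaller than the SD within groups. Such a value could therefore have the opposite sign.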
